A study of Arabidopsis thaliana with 12 samples.

Results

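Plants recognize pathogen molecules inside their cells with NBS-LRR receptors (NLRs). A typical NLR carries a nucleotide-binding domain (NB-ARC), which works as a molecular switch, and leucine-rich repeats (LRR). Many also begin with a TIR domain, an enzyme that consumes NAD+ and signals through EDS1, and others with a coiled coil. Active NLRs can trigger a hypersensitive cell death, plants with too active an NLR are often stunted, and the genes lie in tandem clusters in which new versions arise.

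The genes described here were taken from both deposited tables by their description, which had to contain TIR-NBS, NBS-LRR, NB-ARC or disease resistance protein and not kinase. This gave 17 genes of the 2762 transcript clusters (the array's unit for a gene) with an entry in either table. All 17 had entries in the exon table, with 30 exons of 4977, and 4 of them were also among the 800 entries of the gene table. Not every entry is an annotated gene. Of the gene entries, 171 have no description and could not match, and 96 of these have no chromosome either, while 163 and 77 exons of the exon table are of these kinds. Shares over all entries are therefore given beside those over entries with a description where direction is compared. By description, 11 are TIR-NBS-LRR genes, 2 are TIR-NBS genes without a named repeat domain, 1 is an NB-ARC gene, and 3 are resistance proteins with no domain named. One of the last, RPP27, does not belong to the family by its known structure. It encodes a receptor-like protein with extracellular repeats and no nucleotide-binding domain, and is kept here because the words match. All 17 loci are protein-coding genes of TAIR10.1.

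Roots of 12 day old Col-0 seedlings were compared after 12 h in a 10 ppm gold solution (HAuClO4 in the labels) at pH 4.2 or in distilled water at the same pH. Both groups had been grown hydroponically and both were kept without nutrient medium, so the controls carry the nutrient withdrawal and the acid pH as well. Each of the 2 groups had 3 arrays from independent pools of seedlings, and each of these 6 arrays was deposited as 2 samples, one summarized by gene and one by exon, which makes 12. The tables give 1 mean log2 signal per group, and no value of a single array was analysed here. The p-values and FDR that the authors placed beside these means were not used, so no spread between replicates and no test is given, and every difference below is one of 2 group means. A gene or exon was listed by the authors only if it changed by more than 2-fold with an unadjusted p-value under 0.05, so each entry had to differ. Upregulated and downregulated mean here that a listed mean was higher or lower in gold than in control. An NLR gene without an entry may have been stable, may have changed by less, or may have varied too much between arrays.

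The listed exons of the receptor genes were mostly downregulated, and by little, with a smaller excess when counted by gene. Of the 30 exons 22 were downregulated, or 73.3%, against 45.4% of all 4977 listed exons and 45.7% of the 4814 with a description. Counted by gene, 11 of the 17 had only downregulated exons and 6 only upregulated ones. The 11 include 3 adjacent genes on chromosome 5, described below, and RPP27, which is not an NLR by its known structure. The share of 64.7% downregulated genes stands against 49.4% of the 2740 clusters with listed exons and 50.2% of the 2584 with a description. No receptor gene had exons in both directions, which was rare in general, with 27 of the 2740 clusters. Of the 4 genes in the gene table, 3 were downregulated, against 34.6% of all 800 entries, 33.4% of the 629 with a description and 30.1% of the 704 with a chromosome. Exons of 1 gene are not independent of each other, and no test of these shares was made.

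**Figure D1:**
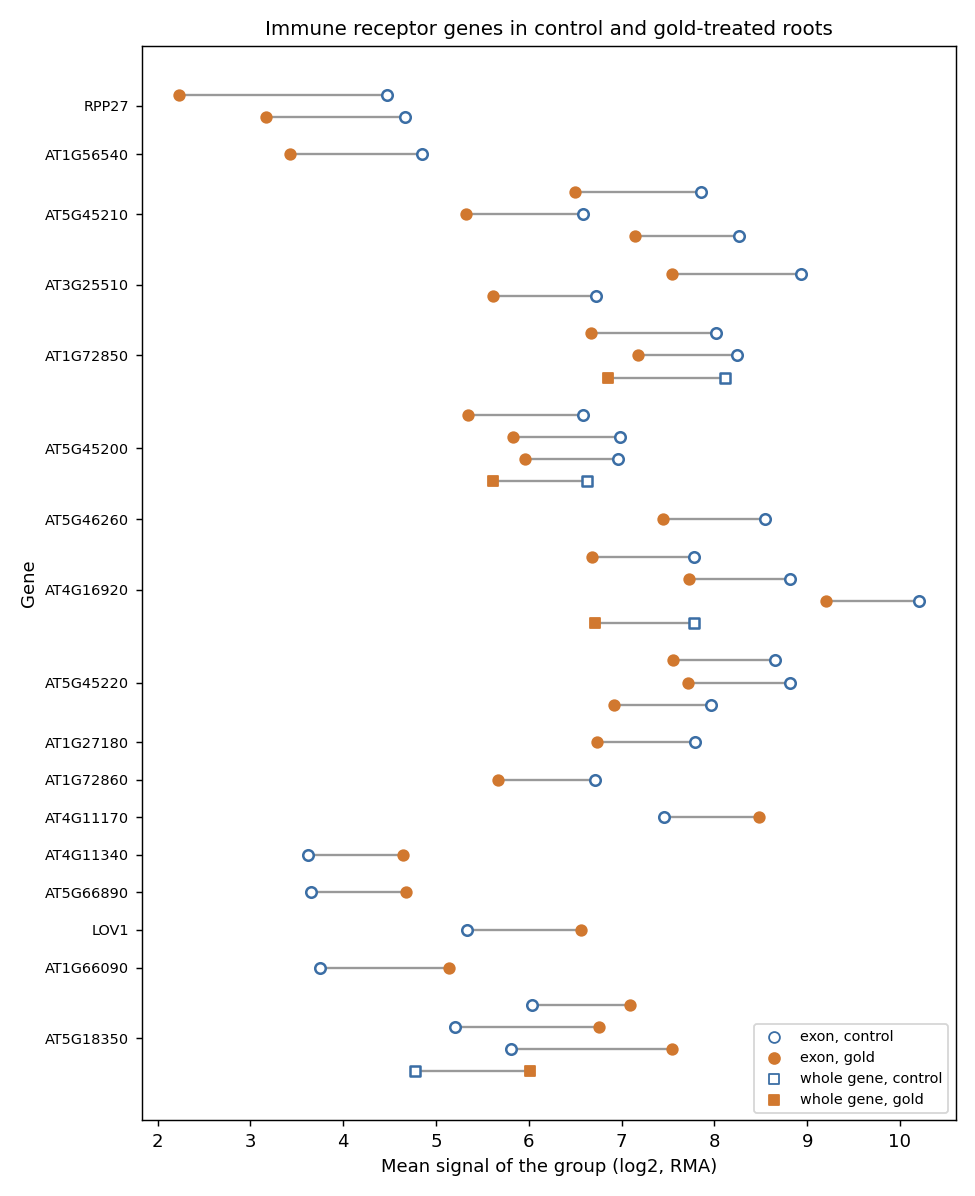
Mean log2 signal (RMA) of control (open blue) and gold-treated roots (filled orange) for the listed exons (circles) and whole-gene summaries (squares) of the 17 genes, ordered by median exon difference, each point being the authors' mean of 3 arrays. The 11 genes at the top have every gold point to the left of its control point, and the 6 at the bottom have the reverse.

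The changes stayed close to the limit for being listed. The median size of the exon differences was 2.15-fold, and over all listed exons it was 2.51-fold. Of the 30 exons 18, or 60%, differed by less than 1.2 on the log2 scale, against 33.7% of all exons. Only 2 of the 30 exceeded 3-fold, 1 in each direction, which is 6.67% against 31.8%. Low signal was about as frequent as elsewhere, since 6 of the 30, or 20%, stayed under a log2 signal of 6 in both groups, against 22.3% of all exons. The 22 downregulated exons had a median log2 signal of 7.83 in the brighter group and the 8 upregulated ones of 6.66.

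**Figure D2:**
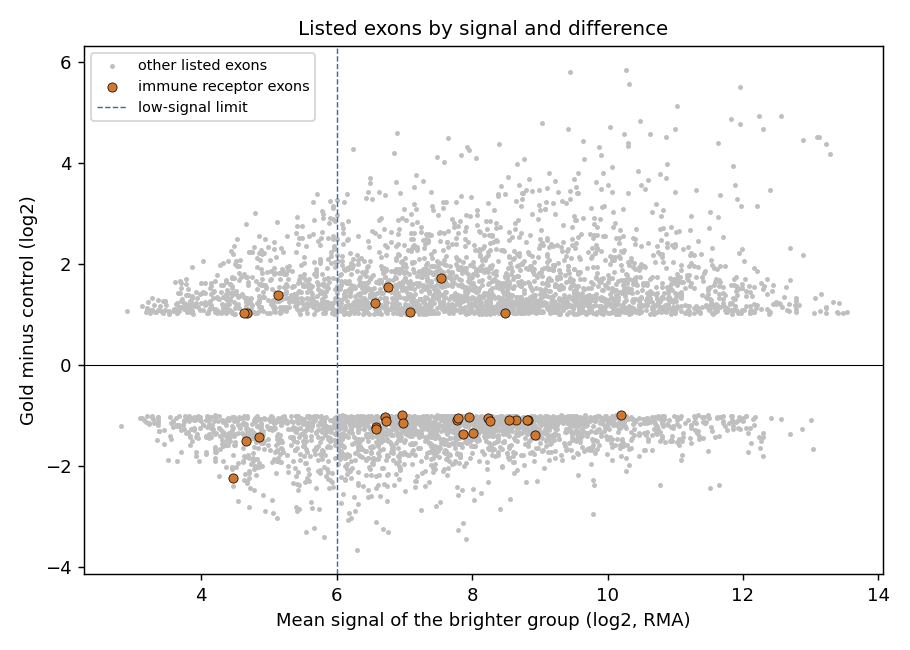
Gold minus control difference (log2) of each of the 4977 listed exons against the mean log2 signal of the brighter group, with the 30 exons of the receptor genes in orange. Most receptor exons lie just below the empty band between -1 and 1 that the 2-fold limit leaves, and 6 lie left of the dashed line at a log2 signal of 6.

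The genes described as TIR-NBS-LRR held most of the downregulated entries. Of the 11 genes 9 were downregulated, against 50.2% of clusters with a description. Of their 22 exons 18, or 81.8%, were lower in gold, against 45.7% of exons with a description. The 3 adjacent genes on chromosome 5, described below, are among these 9 genes and hold 9 of these 18 exons. The class follows the description alone. Apart from RPP27, no member was judged by its known structure, so receptors of this type may stand outside the class. Of the 3 genes with no domain named, 2 were upregulated and RPP27 was downregulated. WRR4, a TIR-type receptor outside the rule, was upregulated and is not counted here. The 2 upregulated genes described as TIR-NBS-LRR were AT5G18350 and AT4G11340.

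The clearest group was a run of 3 neighbouring TIR-NBS-LRR genes on chromosome 5, AT5G45200, AT5G45210 and AT5G45220, which follow each other with no other protein-coding gene between them. All 9 of their listed exons were downregulated, 3 in each gene, by 2- to 2.57-fold. For AT5G45200 the exon signals were 6.58, 6.98 and 6.96 in control and 5.35, 5.83 and 5.96 in gold. Its whole-gene signal went from 6.63 to 5.61, a fall by 1.02 on the log2 scale. AT5G45210, the gene in the middle, had exon signals of 7.86, 6.58 and 8.27 in control and 6.50, 5.32 and 7.15 in gold. Its differences ran from -1.36 to -1.12, and of the 3 genes AT5G45200 alone has an entry in the gene table. AT5G45220 held the brightest exons of the run, with 8.65, 8.81 and 7.96 in control against 7.55, 7.72 and 6.92 in gold. Its differences lay between -1.10 and -1.04.

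The next genes beyond this run, AT5G45190, AT5G45230 and AT5G45240, had no entry in either table. The well-studied pair RPS4 and RRS1 (AT5G45250 and AT5G45260), TIR-type receptors that work together, lies farther along the same stretch and had none either. Without the 3 neighbours, 13 of 21 exons were downregulated, or 61.9%. Such neighbours often have similar sequences, and whether their probes share signal was not tested.

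A second pair of neighbours lies on chromosome 1. AT1G72850, a TIR-NBS gene, had the largest fall of the 4 genes in the gene table. Its whole-gene signal was 8.12 in control and 6.85 in gold, which is lower by 2.41-fold. Its exons fell from 8.02 to 6.67 and from 8.24 to 7.18. AT1G72860, the adjacent TIR-NBS-LRR gene, had 1 listed exon, with a signal of 6.71 in control and 5.67 in gold. Both genes were thus lower, and the whole-gene difference of AT1G72850 lay between those of its exons, -1.35 and -1.06.

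AT4G16920 is a TIR-NBS-LRR gene of the RPP5 cluster on chromosome 4, which also holds the receptors RPP4 and SNC1. Its whole-gene signal was 7.78 in control and 6.71 in gold, lower by 2.1-fold. Its 3 listed exons spanned a wide range of signal, 7.78, 8.82 and 10.2 in control, with 6.68, 7.73 and 9.2 in gold. Over this range the exons fell by similar amounts, from 2- to 2.14-fold, and the brightest of them, which was also the brightest of all 30, lay at the 2-fold limit. SNC1, a receptor known for autoimmune mutants, and RPP4, a receptor of downy mildew, had no entry in either table. The closest neighbours on both sides had none either, AT4G16900 and AT4G16915 before it and AT4G16930 and AT4G16940 after it.

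Other TIR-NBS-LRR genes were lower in 1 or 2 exons only. AT3G25510, the single member on chromosome 3, fell from 8.93 to 7.54 in one exon and from 6.73 to 5.62 in the other. AT5G46260 went from 8.55 to 7.45 and AT1G27180 from 7.79 to 6.74, each in 1 exon. AT1G56540 had a low signal, 4.85 in control and 3.43 in gold, lower by 2.68-fold. No gene-level entry exists for these 4 genes, so their change is known for the listed exons alone.

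RPP27 had the largest difference of the 17 genes, and also the lowest signal. Its exons measured 4.47 and 4.67 in control and 2.23 and 3.17 in gold, which is lower by 4.72- and 2.83-fold. Both control signals were below 6, the limit used here for low signal, and the part of array background in these values was not tested. Without RPP27, 20 of 28 exons were downregulated, or 71.4%.

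AT5G18350 was the most clearly upregulated receptor gene. This TIR-NBS-LRR gene on chromosome 5 had exon signals of 5.81, 5.21 and 6.04 in control and 7.54, 6.76 and 7.09 in gold. The rises were 3.32-, 2.93- and 2.07-fold. The whole-gene signal rose from 4.77 to 6.01, or 2.36-fold, and it was the only upregulated receptor in the gene table. Its following neighbours AT5G18360 and AT5G18370 had no entry.

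The other 5 upregulated genes had 1 listed exon each. LOV1, a coiled-coil NLR through which the fungal toxin victorin kills susceptible plants, rose from 5.34 to 6.56. AT4G11170, listed in the reference as RMG1 (Resistance Methylated Gene 1), had the brightest of these exons, 7.46 in control and 8.48 in gold. The last 3 had low signal. AT1G66090, a TIR-NBS gene, went from 3.75 to 5.14, AT5G66890 from 3.65 to 4.68, and AT4G11340 from 3.62 to 4.64. AT5G66890 is followed by NRG1.1 and NRG1.2, helper NLRs that act downstream of many TIR-type receptors, and neither of these had an entry.

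Where a whole-gene value was listed, it went with the exons. In all 4 genes of the gene table each listed exon had the direction of its gene. For the receptor genes 23.5% of those with a listed exon were also in the gene table, over all clusters 28.4%, and over those with a description 24.2%. A single listed exon was found in 9 of the 17, or 52.9%, against 66.2% of all clusters with listed exons, and 3 exons in 5 of the 17, or 29.4%, against 18.1% with 3 or more. How many exons of each gene the array measures was not analysed, so a gene with 1 listed exon may be one with few exons.

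Genes described as receptor kinases, many of which sense molecules at the cell surface, were set beside the NLRs. Of their 84 listed exons 60, or 71.4%, were downregulated, and of the 39 genes 24, or 61.5%, had only downregulated exons. These shares lay near those of the NLRs. The receptor kinases had larger differences, with a median size of 2.62-fold and 34.5% of exons past 3-fold.

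**Figure D3:**
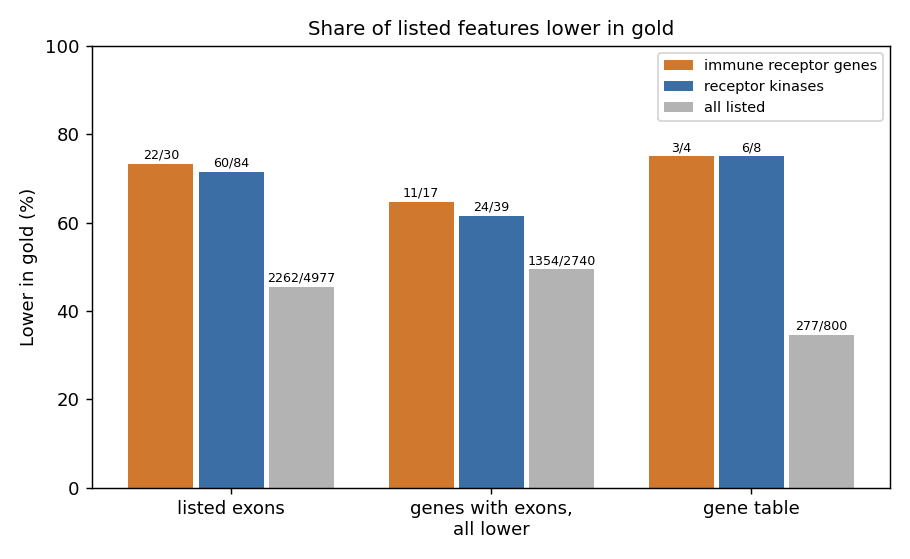
Percentage of listed features lower in gold among the immune receptor genes (orange), receptor kinases (blue) and all listed features, unannotated ones included (grey), for exons, for genes whose listed exons were all lower, and for the gene table, with the counts above each bar. The bars of the receptor genes and the receptor kinases stand near each other, and both above the bars of all listed features.

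Genes of the wider immune pathway were listed about as often as protein-coding genes in general. Of 60 loci, which include 18 NLRs of known function and 5 genes of surface immunity, 6, or 10%, had an entry, against 9.71% of the 27562 protein-coding loci of TAIR10.1. Without these 2 receptor lists, 3 of 37 were listed, or 8.11%. LOV1 counts both among the 60 and among the 17 members. EDS1, PAD4 and SAG101 form the hub of TIR signalling. None of the 10 components directly downstream had an entry, among them these genes, NDR1, the ADR1 helpers, NRG1.1 and NRG1.2. Neither did any of the 7 chaperones and turnover factors such as RAR1, SGT1B and HSP90.1, the guarded proteins RIN4 and PBS1, or the 4 genes of small RNA control such as RDR6. Among 18 NLRs of known function only LOV1 and WRR4 were listed.

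WRR4, a TIR-type receptor of white rust whose description lacks the words of the rule, was upregulated in 2 exons. They measured 6.80 and 2.53 in control and 7.86 and 3.64 in gold, and the dimmer exon had a low signal in both groups. The nearby TIR-NBS-LRR gene AT1G56540, described above, was downregulated.

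Of the 14 genes of salicylic acid and systemic resistance, 3 were listed, in both directions. FMO1, which makes the mobile resistance signal N-hydroxypipecolic acid, fell from 8.26 to 6.71 at the gene level and in all 7 listed exons. AT1G73805 (SARD1), a transcription factor of salicylic acid synthesis, fell by 2.03- to 2.19-fold in 3 exons. WRKY70, a transcription factor of salicylic acid responses, rose from 9.49 to 10.56. The marker genes PR1, PR2 and PR5 had no entry. Among 5 genes of surface immunity only FLS2, the flagellin receptor, was listed. It rose from 4.15 to 5.38 at the gene level, a low signal in both groups. Its listed exons rose from 7.17 to 8.73 and from 3.18 to 5.03, the latter with low signal.

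The tissue could be checked only through listed entries. Of 7 root markers 3 were listed, COBL9 (named SHV2 in the tables), EXPA7 and LRX1, all genes of root hairs and all lower in gold. The other root markers had no entry, namely SCR, CASP1, SHR and RHD2, the last of which is also a gene of root hairs. LRX1 went from 9.90 to 8.89 at the gene level, the listed COBL9 exon from 9.17 to 7.69 and that of EXPA7 from 8.13 to 7.12. Of 4 shoot markers RCA alone was listed, with 1 exon at 2.40 in control and 3.43 in gold, both low. In whole roots, fewer cells of a type and less RNA per cell cannot be told apart, and the part of root hair cells in the lower receptor signals was not tested.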

How the data were processed

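The authors summarized the arrays with RMA in Affymetrix Expression Console, per gene and per exon, which background-corrects and quantile-normalizes them and yields log2 signals. Their comparison used an unpaired analysis of variance in the Transcriptome Analysis Console. The deposited log2 columns are bi-weight averages over the 3 arrays of a group, on the tair10 annotation. The deposited tables also hold the authors' fold changes, p-values and FDR, which were not used. Differences were computed as gold minus control of the printed means, and folds from these.

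Members were matched by description, and loci by the AT identifiers in the tables. RefSeq's TAIR10.1 gene table gave names, gene class and gene order. No coordinates and no sequences are reported. Of the 17 loci 6 overlap another annotated locus, and strand was not examined. The matching was tested on simulated data. Python 3.11.15, pandas 2.3.3, numpy 2.4.6 and scipy 1.17.1 were used.

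Named were all genes in the gene table, those with 3 or more listed exons, the 5 largest rises and 5 largest falls of a single exon and runs of neighbours. The remaining members are named too, beyond that rule, with their values seen. The members and gene lists were chosen with earlier results of these data known. Depth is not a property of arrays, and their number limits the precision. Alternatives were a 3-fold limit, a signal minimum of 6, narrower description words, clusters naming 1 locus, counting genes once and genes with 2 or more exons.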

Additional observations from a re-analysis of the deposited data

How the results depend on the processing

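A 3-fold limit changed most. It left 0 of the 4 gene-table entries and thus 0 downregulated ones, where 28.7% of all 800 entries passed. Of the exons it left 2, of 2 genes, 1 of them downregulated (50%), with a median log2 difference of -0.26. Over all listed exons the downregulated share fell to 31.1% under the same limit. Counting each gene once by its median exon gave 17 entries with 11 downregulated, and genes with 2 or more listed exons numbered 8. Leaving out the 3 neighbours on chromosome 5, an alternative chosen after seeing the data, left 13 downregulated exons. The downregulated share of exons was 61.9% to 85.7% under the settings other than the 3-fold limit. These were a signal minimum, narrower words, clusters naming 1 locus, counting genes once, 2 or more exons, and leaving out the neighbours or RPP27. With the signal minimum it was 79.2%, against 43.5% of all listed exons. For genes with 2 or more listed exons it was 85.7%, against 41.3%. A share was taken as moved when it left the Wilson 95% interval of the reported one, and other values when they changed by over 1.5 times. That interval treats exons as independent, which they are not, so it served only as a limit for this label and measures no spread. The share of all annotated NLR genes with an entry was not run, since the reference used here gives no descriptions. Counting only entries with a description, also chosen after seeing the data, moved the share of all entries that was downregulated from 34.6% to 33.4% in the gene table and from 45.4% to 45.7% for exons. No replicate could be left out, as the tables hold group means. No paired analysis was possible because the columns carry no replicate. The number of arrays limits the precision.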

Other observations

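Outside the description rule, 3 further genes, picked out after their values were seen, had single listed exons. SNI1, a repressor of systemic acquired resistance, rose from 3.97 to 5.58, with a low signal in both groups. DMR6, an oxygenase that lowers salicylic acid and is needed for susceptibility to downy mildew, rose from 6.47 to 7.84. AT5G45510, a gene with leucine-rich repeats on chromosome 5, fell from 7.89 to 6.82.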
